A study of Homo sapiens with 4 samples.

Results

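The cytosolic and mitochondrial heat shock proteins described here are HSPB1, HSPA8, HSP90AB1, HSP90AA1, HSPD1, HSPE1 and DNAJB1. In each library a gene was taken as the row that carries its symbol, or else as the row whose locus has the highest overlap over union with the gene's hg19 span, at least 0.4. By this rule 5 of the 7 genes had a row in all 4 libraries, HSPB1 by its name and the other 4 by position. HSPE1 and DNAJB1 had none. The 5 rows stand among 10091 tested loci. The libraries were made from LNCaP, an established human cell line grown from a lymph node metastasis of prostate cancer, at passage 22. Cells were transiently transfected with a CRYM expression vector (2 libraries) or with the empty pReceiver-M72 vector (2 libraries), and RNA was taken after 48 h. All 4 cultures received plasmid and a lipid reagent, so the response of chaperone genes to transfection itself was not measured here. The labels do not give the share of cells that took up a vector.

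Heat shock proteins are molecular chaperones: they bind unfolded or partly folded proteins and let them fold, refold or be degraded. HSP70 proteins hold short exposed stretches of a client in a cycle driven by ATP, which J proteins start, and pass some clients on to HSP90, which keeps steroid receptors such as the androgen receptor able to bind hormone. In mitochondria the chaperonin HSP60 and its lid HSP10 enclose imported proteins, and small heat shock proteins hold unfolded proteins without using ATP. Many of these genes are induced by heat shock factors, which bind repeats of the letters GAA and TTC in promoters.

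The promoters are shown because the 5 loci differ in how they carry those repeats. RefSeq windows of GRCh38.p14, 300 bases long from 250 before to 50 after an annotated start, were found for all 7 genes, 13 windows in all. They were searched on both strands for GAANNTTCNNGAA, whose reverse complement is TTCNNGAANNTTC, and for the shorter pairs GAANNTTC and TTCNNGAA that lie inside it. The 13-letter motif was present in 172 of 35116 windows in the table, or 0.490%, and a pair in 13.5%. Of the 7 genes, 4 had a window with the 13-letter motif: HSPA8, HSP90AB1, HSP90AA1 and HSPD1. The 250 bases before the start are printed 5′ to 3′ for those windows and for HSPB1, with each 13-letter match in capitals.
HSPA8, chr11:123062137-123062386, minus strand: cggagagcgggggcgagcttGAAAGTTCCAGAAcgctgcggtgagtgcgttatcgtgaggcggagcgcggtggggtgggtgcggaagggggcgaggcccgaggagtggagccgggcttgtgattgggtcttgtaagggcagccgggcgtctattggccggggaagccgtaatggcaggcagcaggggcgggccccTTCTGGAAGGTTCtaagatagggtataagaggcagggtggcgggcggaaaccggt
HSP90AB1, chr6:44247693-44247942, plus strand: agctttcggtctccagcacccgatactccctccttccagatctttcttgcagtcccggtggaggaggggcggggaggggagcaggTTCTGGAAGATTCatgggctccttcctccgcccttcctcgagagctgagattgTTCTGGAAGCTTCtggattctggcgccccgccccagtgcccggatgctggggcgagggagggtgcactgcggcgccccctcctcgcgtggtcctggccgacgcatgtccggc
HSP90AA1, chr14:102087045-102087294, minus strand: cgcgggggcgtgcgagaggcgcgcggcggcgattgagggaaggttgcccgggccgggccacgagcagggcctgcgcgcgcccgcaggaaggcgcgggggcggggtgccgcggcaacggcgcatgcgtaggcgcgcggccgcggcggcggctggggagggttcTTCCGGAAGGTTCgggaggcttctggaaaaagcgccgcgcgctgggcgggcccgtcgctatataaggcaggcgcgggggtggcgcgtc
HSPD1, chr2:197499841-197500090, minus strand: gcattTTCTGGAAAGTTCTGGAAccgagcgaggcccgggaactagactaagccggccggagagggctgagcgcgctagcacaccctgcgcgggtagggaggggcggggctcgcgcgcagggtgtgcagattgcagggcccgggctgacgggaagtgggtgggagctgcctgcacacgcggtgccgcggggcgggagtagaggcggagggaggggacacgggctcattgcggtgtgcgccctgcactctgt
HSPB1, chr7:76302423-76302672, plus strand: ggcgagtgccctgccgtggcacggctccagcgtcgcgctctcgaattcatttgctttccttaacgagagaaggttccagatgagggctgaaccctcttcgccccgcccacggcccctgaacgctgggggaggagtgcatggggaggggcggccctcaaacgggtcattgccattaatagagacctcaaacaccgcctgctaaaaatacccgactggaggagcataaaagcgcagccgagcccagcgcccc
The HSPA8 window held the motif at 230 and at 55 bases before the start, and the HSP90AB1 window of start 3 at 165 and 112 bases before it. The HSP90AA1 window of start 2 held it 88 bases before the start. The HSPD1 window of start 2 held a pair of overlapping matches, at 245 and 240 bases before the start. The HSPB1 window held a pair only, at 182 bases before the start, and DNAJB1 had pairs in the windows of starts 2 and 3. The HSPE1 window (chromosome 2, 197500129 to 197500428, plus strand) held neither motif. The HSPD1 window of start 2 ends at 197500090, so its matches lie upstream of HSPE1 and outside the HSPE1 window. Bases more than 250 before the HSPE1 start were not searched for that gene. These are exact matches of letters, not measured binding sites. Motifs with a changed letter were not searched for, so a window without a match may still hold a near match.

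**Figure D1:**
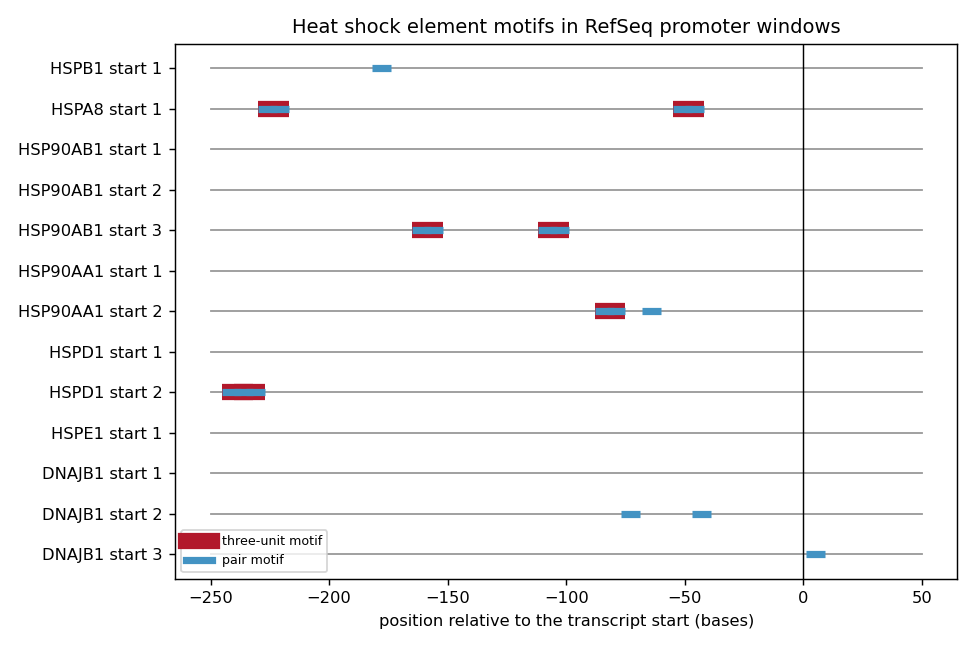
Positions of the 13-letter motif (red) and of the pair motif (blue) in the 13 RefSeq promoter windows of the 7 genes, in bases from the annotated start. The 13-letter motif lies in 4 windows, of HSPA8, HSP90AB1, HSP90AA1 and HSPD1.

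The vector check came first. The locus taken as CRYM, from the order of its neighbours, had 65.3 and 72.5 FPKM in the CRYM vector libraries and 1.17 and 0.977 FPKM in the empty vector libraries. FPKM is the number of fragments per kilobase of transcript scaled to the mapped fragments of the library, so levels of different genes can be set side by side. With empty vector library 1 set to 1, relative depth came to 0.842 and 1.07 in the CRYM vector libraries and to 1.15 in empty vector library 2. Of 10 prostate epithelial markers listed, the joined files name HOXB13, at 110.3 and 114.1 FPKM in CRYM vector cells and 128.4 and 127.7 FPKM in empty vector cells, and SPDEF, at 46.8 and 48.0 against 86.9 and 84.5 FPKM. Of the markers of other cell types, HLA-DRA of the immune list stayed at or below 2.40 FPKM and CLDN5 of the endothelial list at or below 0.275 FPKM. The part of these marker differences in the chaperone values was not tested. In bulk RNA, fewer cells with a transcript and less of it per cell cannot be told apart.

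All 5 heat shock loci were among the most abundant in these cells, and their levels differed little between the groups. Each lay between the 98.2nd and 99.2nd percentile of tested loci in every library. HSPA8 alone passed the test, at 1.14-fold the empty vector level, so 1 of the 5 was called, in the higher direction, where 33.3% of all tested loci were called in either direction, 15.7% as higher and 17.7% as lower. At an unadjusted limma p under 0.05 it was also 1 of the 5, and 46.1% of all tested loci. The median log2 difference of the 5 loci was 0.02, with a range of -0.05 to 0.19, and that of all tested loci was 0.01, with quartiles at -0.21 and 0.24. Log2 differences are on the log2(FPKM + 1) scale, as CRYM vector minus empty vector, and adjusted p-values are from limma with Benjamini-Hochberg adjustment over all 10091 loci. The groups did not overlap at 3 of the 5, HSPA8, HSP90AA1 and HSP90AB1, all higher in CRYM vector cells. Over all tested loci 72.2% did not overlap, 37.0% in the higher direction and 35.3% in the lower.

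**Figure D2:**
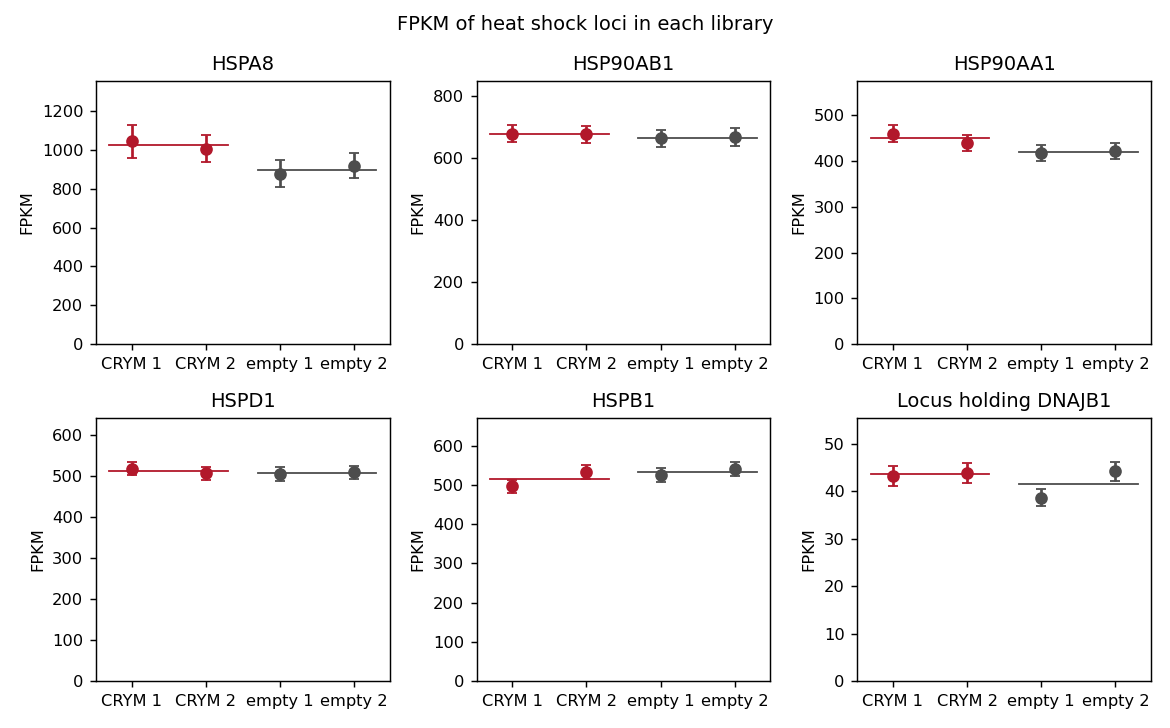
FPKM in each library for the 5 heat shock loci and for the locus that holds DNAJB1, CRYM vector in red and empty vector in grey. Points are single libraries with the deposited lower and upper bounds, and lines are the means of 2 libraries. HSPA8 sits at 1005 to 1043 FPKM in the CRYM vector libraries and at 877.4 to 917.7 FPKM in the empty vector libraries.

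HSPA8 encodes HSC70, the HSP70 protein that cells make without stress, and it was the most abundant of the 5. Its locus (hg19 chromosome 11, 122928197 to 122933938) had 1043 and 1005 FPKM in the CRYM vector libraries and 877.4 and 917.7 FPKM in the empty vector libraries. Both CRYM vector libraries lay above both empty vector libraries. The group means were 1024 ± 26.7 and 897.6 ± 28.6 FPKM (SD, n = 2 each). The log2 difference was 0.19 (SE 0.0391, 95% interval 0.07 to 0.31) with a limma adjusted p of 0.0478, and 29.6% of tested loci had a difference at least as high. The deposited bounds were the widest of the 5 loci, at 6.86% to 8.17% of the value on each side. Those of CRYM library 2, 936.4 to 1074 FPKM, overlapped those of empty vector library 1, 806.7 to 948.1 FPKM, and of empty vector library 2, 853.9 to 981.6 FPKM. Those of CRYM library 1, 957.8 to 1128 FPKM, overlapped those of empty vector library 2 and not those of empty vector library 1.

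The HSPA8 call lay close to the threshold and did not hold under several alternatives. With libraries rescaled to the same total the log2 difference was 0.22 and the limma adjusted p 0.123, and with quantile normalization 0.27 and 0.0569. With loci of any FPKM tested the adjusted p was 0.125, without a trend in the variance model 0.0673, and among named loci and the 5 alone 0.103. Without any 1 library the difference was 0.16 to 0.22 and the adjusted p 0.106 to 0.188: 0.188 without CRYM library 1, 0.138 without CRYM library 2, 0.147 without empty vector library 1 and 0.106 without empty vector library 2. No locus was called in any of these 4 fits, CRYM included (smallest limma adjusted p 0.0550 to 0.0713).

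The HSPA8 locus also holds SNORD14E, a small nucleolar RNA encoded in an intron of the gene. SNORD14E was listed at 25.2 and 20.0 FPKM in the CRYM vector libraries and at 0 and 18.8 FPKM in the empty vector libraries, with a lower bound of 0 in each. Upper bounds were 75.6 and 59.9 FPKM in the CRYM vector libraries and 0 and 56.3 FPKM in the empty vector libraries. The values above 0 fell as relative depth rose, from 0.842 through 1.07 to 1.15. Whether they differ by more than depth was not tested. The bounds on each value above 0 were wider than the value itself, so these values are not read as levels of expression. The groups did not overlap, but with such bounds this shows no difference, and the gene did not pass (limma adjusted p = 0.370).

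DNAJB1, an HSP40 protein whose J domain starts the ATP cycle of HSP70, had no row under the rule. The locus that holds its whole span (chromosome 19, 14625582 to 14640582) overlaps it by 0.2 of the union, and it was added after the values were seen. This locus had 43.3 and 43.8 FPKM in the CRYM vector libraries and 38.7 and 44.2 FPKM in the empty vector libraries. Empty vector library 1 was the low one, and the other 3 lay within 1 FPKM of each other. The log2 difference was 0.07 (95% interval -0.17 to 0.32) with a limma adjusted p of 0.531. Another unnamed locus (14627897 to 14676792) covers 36.8% of the DNAJB1 span. It had 75.2 and 79.2 FPKM in CRYM vector cells against 98.97 and 93.3 FPKM in empty vector cells, and fell, by a log2 difference of -0.31 (limma adjusted p = 0.0308). The call was lost with no filter (limma adjusted p = 0.0662) and on rescaling to the same total (0.134). In GENCODE v29, an annotation of GRCh38, the locus of 15001 bases has the length of DNAJB1 to the base and that of 48896 bases the length of TECR, an enzyme of fatty acid elongation on the opposite strand, and no other gene of the chromosome has either length. The span used in the rule is shorter than that annotated gene. Reads of overlapping genes cannot be told apart where strand was not used.

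HSP90AB1 and HSP90AA1 encode the constitutive and the stress-inducible form of cytosolic HSP90. The HSP90AB1 locus (chromosome 6, 44214824 to 44221620) had 678.3 and 675.8 FPKM in the CRYM vector libraries and 663.8 and 667.5 FPKM in the empty vector libraries. The groups did not overlap, but the difference was 1.02-fold, the narrowest gap of the 3 loci without overlap. Its log2 difference was 0.02 (95% interval -0.04 to 0.09) with a limma adjusted p of 0.410. Another unnamed locus (44221833 to 44225291) covers 2.4% of the HSP90AB1 span. It had 46.4 and 45.9 FPKM in the CRYM vector libraries and 41.4 and 39.1 FPKM in the empty vector libraries, with a lower bound of 0 in each.

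The HSP90AA1 locus (chromosome 14, 102547075 to 102606036) had 460.0 and 439.6 FPKM in the CRYM vector libraries and 418.4 and 421.9 FPKM in the empty vector libraries. Both CRYM vector libraries lay above both empty vector libraries, at a ratio of means of 1.07. The log2 difference was 0.10 (SE 0.0326, 95% interval -0.00434 to 0.20), and it did not pass (limma adjusted p = 0.117). With quantile normalization it was 0.21 and did pass (limma adjusted p = 0.0246). Short unnamed loci assembled inside the HSP90AA1 locus numbered 2 and 4 in the CRYM vector libraries and 2 and 3 in the empty vector libraries, none above 0.648 FPKM. A longer locus that covers 0.273% of the HSP90AA1 span (102605840 to 102691184) was listed at 0 in every library. For both HSP90 genes the deposited bounds were 4.15% to 4.17% of the value on each side in every library although depth differed. Those of HSPD1 were 3.26% to 3.29% and those of HSPB1 3.40% to 3.47%. The bounds of these loci therefore do not follow depth.

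HSPD1 and HSPE1, the genes of mitochondrial HSP60 and HSP10, lie head to head on chromosome 2. The row taken as HSPD1 (198351305 to 198381461) has an overlap over union of 0.45, the lowest of the 5, and also covers the whole HSPE1 span. Its 30157 bases are the length of HSPD1 in GENCODE v29, to the base. This locus had 517.8 and 506.0 FPKM in the CRYM vector libraries and 504.1 and 508.5 FPKM in the empty vector libraries. The groups overlapped, and the ratio of means was 1.01. The log2 difference was 0.02 (95% interval -0.06 to 0.09) with a limma adjusted p of 0.656. A second locus that covers the HSPE1 span (198364718 to 198418423) was listed at 0 in all 4 libraries, which is no value for HSPE1, a gene that every cell uses. Whether HSPE1 reads entered the HSPD1 row was not tested.

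HSPB1, the gene of the small heat shock protein HSP27, was the 1 locus of the 5 with a lower mean in CRYM vector cells. Its locus (chromosome 7, 75931861 to 75933612) had 496.9 and 533.4 FPKM in the CRYM vector libraries and 525.0 and 541.8 FPKM in the empty vector libraries. The lowest value was that of CRYM library 1, and CRYM library 2 lay between the empty vector libraries. The group means were 515.2 ± 25.8 and 533.4 ± 11.9 FPKM (SD, n = 2 each), and the log2 difference was -0.05 (95% interval -0.20 to 0.10; limma adjusted p = 0.483). Without CRYM library 1 the difference was 0.00019.

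**Figure D3:**
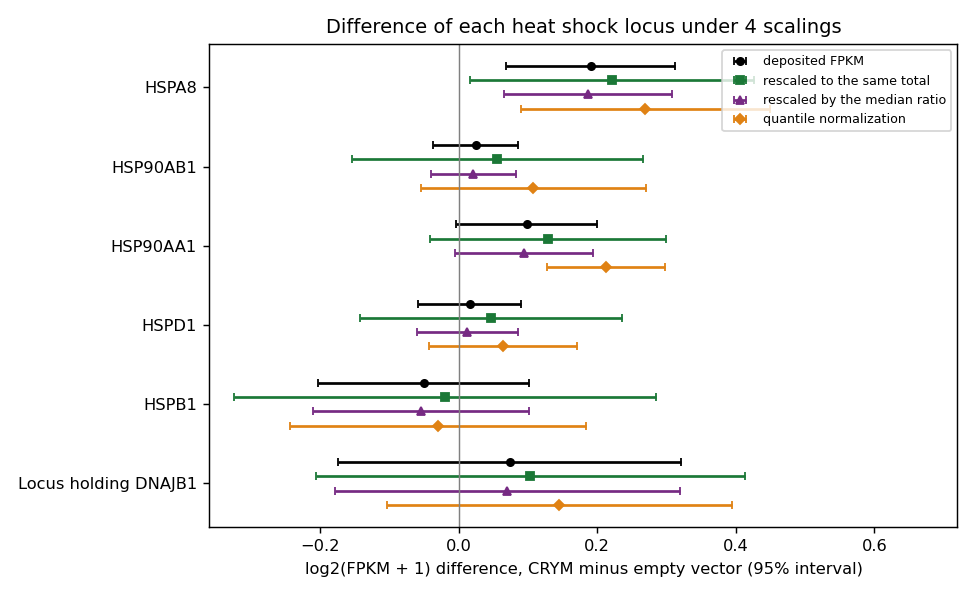
Log2 difference, CRYM vector minus empty vector, with its 95% limma interval for the 5 heat shock loci and the locus that holds DNAJB1, under the deposited FPKM and 3 other scalings. HSPA8 is the highest under each scaling, at 0.19 to 0.27, and HSPB1 is below 0 under each.

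The order of levels was the same at its ends in every library: HSPA8 first, then HSP90AB1, with HSP90AA1 last. HSPB1 and HSPD1 changed places, with HSPD1 above HSPB1 in CRYM library 1 and below it in the other 3, and their deposited bounds overlapped in each library. HSPA8 made up 32.6% and 31.8% of the summed FPKM of the 5 loci in the CRYM vector libraries and 29.4% and 30.0% in the empty vector libraries. The sum was 3178 ± 25.4 FPKM in CRYM vector cells and 3023 ± 48.6 FPKM in empty vector cells (SD, n = 2 each), a ratio of 1.05.

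Ratios within a library do not change when that library is rescaled. That of HSP90AA1 to HSP90AB1 was planned, and the others were added after the values were seen. Of the 10 ratios between the 5 loci, 8 did not overlap between groups, where 72.2% of single tested loci did not, and no share was taken over ratios of other loci. The ratios share loci, and a permutation of 2 against 2 libraries cannot give a two-sided p under 0.333. HSPA8 stood higher against each of the other 4. Its ratio to HSP90AB1 was 1.54 and 1.49 in the CRYM vector libraries and 1.32 and 1.37 in the empty vector libraries. Its ratio to HSPB1 was 2.099 and 1.88 in CRYM vector cells against 1.67 and 1.69 in empty vector cells. HSP90AA1 stood at 0.678 and 0.651 of HSP90AB1 in the CRYM vector libraries and at 0.630 and 0.632 in the empty vector libraries. The 2 ratios with overlap were HSP90AB1 to HSPD1, at 1.31 and 1.34 against 1.32 and 1.31, and HSPD1 to HSPB1, at 1.04 and 0.949 against 0.960 and 0.938.

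**Figure D4:**
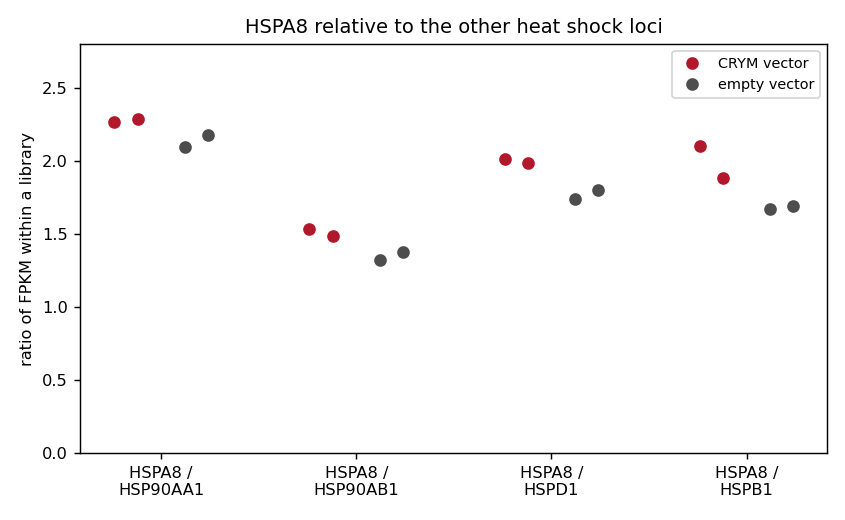
Ratio of HSPA8 FPKM to that of each of the other 4 heat shock loci within each library, CRYM vector in red and empty vector in grey. For each denominator both CRYM vector libraries lie above both empty vector libraries.

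Processed pseudogenes of these genes are scattered over the genome, and reads can be shared between a gene and its copies. The joined files name 62 copies of the 7 genes, of which 25 were listed at 0 in all 4 libraries and 3 reached the level for testing. The summed FPKM of the copies of HSPA8 was 0.111% and 0.146% of its own in the CRYM vector libraries and 0.164% and 0.158% in the empty vector libraries. For HSPB1 the copies came to 1.16% and 1.36% in CRYM vector cells and 0.978% and 1.06% in empty vector cells, the highest shares. HSPB1P1 had 5.61 and 7.08 FPKM in CRYM vector cells and 5.05 and 5.59 FPKM in empty vector cells (limma adjusted p = 0.317). HSPE1P25 had 2.90 and 2.25 FPKM against 2.46 and 1.65 FPKM (limma adjusted p = 0.424). HSP90AA6P fell, with 0.587 and 0.284 FPKM in CRYM vector cells and 1.60 and 2.03 FPKM in empty vector cells, a log2 difference of -0.98 (SE 0.164, limma adjusted p = 0.0338). At this low level the size depends on the pseudocount: the log2 difference was -1.89 with 0.1 and -0.33 with 5. The call was lost with no filter (limma adjusted p = 0.0889), with quantile normalization (0.0615) and among named loci alone (0.0686). The HSP90AA6P row spans 23981 bases, and how much of its signal comes from the copy itself was not tested. The copies were looked up after the values were seen.

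Of 88 other chaperone genes listed, among them further HSP70 and J proteins, cochaperones, the cytosolic chaperonin, prefoldin and mitochondrial proteases, the joined files name 9 on a main chromosome. Of these, 5 were tested, and 1 passed, DNAJC7, in the higher direction, where 33.3% of all tested loci passed and 15.7% in that direction. DNAJC7 is a J protein that binds HSP70 and HSP90. Its named locus of 1762 bases had 2.18 and 2.32 FPKM in CRYM vector cells and 1.53 and 1.48 FPKM in empty vector cells, a log2 difference of 0.38 (SE 0.0613, limma adjusted p = 0.0325). That length was not set beside the length of the gene, so how much of DNAJC7 the row holds was not tested. The call was lost on rescaling to the same total (limma adjusted p = 0.0841), with quantile normalization (0.0927), with no filter (0.141), and among named loci alone (0.0721). The log2 difference was 0.55 with a pseudocount of 0.1, 0.16 with 5 and 0.22 with quantile normalization.

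The other 4 tested chaperone genes did not pass. HSF2, a heat shock transcription factor, had 9.40 and 9.005 FPKM in CRYM vector cells and 9.57 and 9.76 FPKM in empty vector cells, a log2 difference of -0.06 (95% interval -0.19 to 0.06; limma adjusted p = 0.317). PFDN2, a subunit of prefoldin, which hands unfolded actin and tubulin to the chaperonin, had 138.4 and 112.1 FPKM in CRYM vector cells against 146.8 and 127.8 FPKM in empty vector cells (limma adjusted p = 0.531). TOMM34, a cochaperone of HSP70 and HSP90, had 32.6 and 32.1 FPKM against 33.2 and 31.8 FPKM (limma adjusted p = 0.895).

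HSPA1L, an HSP70 gene best known from testis, had 2.46 and 2.55 FPKM in CRYM vector cells and 1.76 and 2.17 FPKM in empty vector cells. The groups did not overlap, and it did not pass (log2 difference 0.24, limma adjusted p = 0.160). HSPA1L has closely similar neighbours, so the counting of its reads is uncertain. The stress-induced HSP70 gene HSPA6 stayed below the level for testing, at 0.719 and 0.856 FPKM in CRYM vector cells and 0.386 and 0.906 FPKM in empty vector cells. CRYAA reached at most 0.0192 FPKM, and HSPB3 and HSFX1 were listed at 0 in all 4 libraries.

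**Figure D5:**
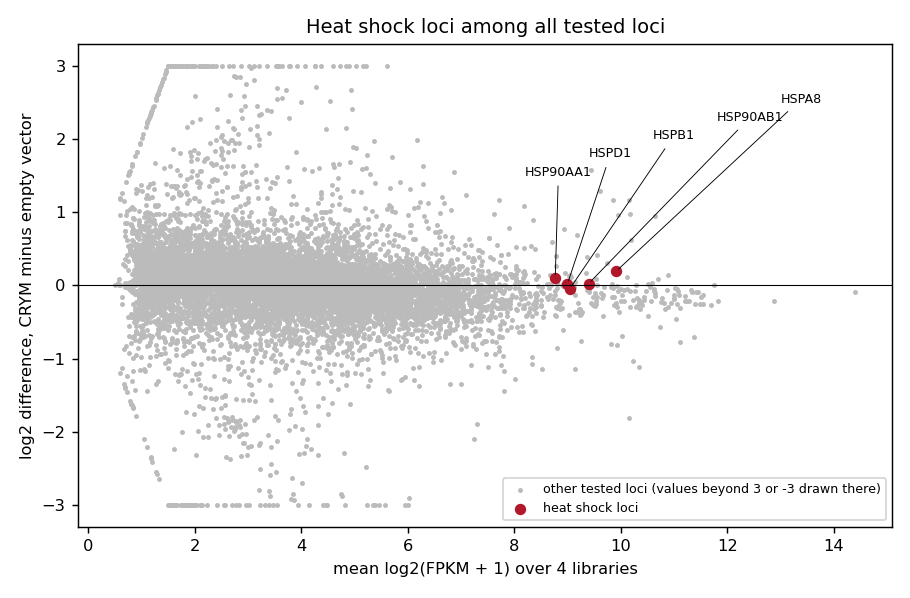
Log2 difference (CRYM vector minus empty vector) against mean log2(FPKM + 1) over 4 libraries for the 10091 tested loci in grey, with the 5 heat shock loci in red. The 5 lie at the abundant end, with differences of -0.05 to 0.19.

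Candidates for a like profile were 782 named protein-coding loci on main chromosomes, with chromosome 8 left out. Those whose values over the 4 libraries lay nearest to the median profile of the 5 heat shock loci were TSR2, ITPRIP, UBE2R2, TNFRSF21 and TUSC1. Likeness was the Euclidean distance between log2(FPKM + 1) profiles centred over the 4 libraries, and it was 0.0140 to 0.0332 for these 5. TSR2 had 25.6 and 25.8 FPKM in CRYM vector cells and 25.02 and 25.2 FPKM in empty vector cells. All 5 had log2 differences of 0.03 to 0.05, and none passed (limma adjusted p 0.272 to 0.690). Small differences follow from the choice of these loci, since the median profile itself varied little.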

How the data were processed

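RNA from LNCaP cells was sequenced as single reads of 50 bp after a stranded mRNA library protocol, per the labels' protocols. Per the submitters' processing notes, Cufflinks 2.2.1, Cuffdiff, TopHat2 2.1.1 and Bowtie2 2.2.9 were used with hg19 and GRCh37, and the role of each is left unsaid. The deposited values are FPKM for each locus, bounded below and above and with a quality status, in 1 table per library, per the file headers. The handling of reads shared between copies, and of strand, is not given in these sources.

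The 4 tables were joined by identical position (52318 loci), and 27 identifiers with more than 1 locus were summed. The 5 heat shock rows had the same position in every table. Testing was limited to loci that reached 1 FPKM in 2 or more libraries and had status OK in every one. It used limma 3.58.1 under R 4.3.3, on log2(FPKM + 1), without pairing, with a variance trend and a two-sided threshold of 0.05 after Benjamini-Hochberg adjustment. The fit was run on simulated data with added changes, as a check of the code only. Those values were drawn independently, so the check does not bear on how these samples spread. No label states separate cultures for the samples of a group. The p-values therefore measure only how these samples spread, which may be technical. Absolute depth is unknown, and relative depth came from the steps between FPKM values at loci of 60, 61 and 62 bp. Deposited bounds are given within 1 library each, and what they cover is not stated in these sources. Their width differs at like levels. In CRYM library 1 they were 41.2 to 45.4 FPKM at the locus that holds DNAJB1. At the locus beside HSP90AB1 (44221833 to 44225291) they were 0 to 117.1 FPKM. At the HSP90, HSPD1 and HSPB1 loci the bounds do not follow depth. Whether they overlap is therefore no test of a difference. Named genes are the 7 members, CRYM, loci that overlap a member, tested genes of a list of 88 chaperones, ratios between members and the 5 nearest profiles. Members and lists were chosen with earlier results of these data known. Locus lengths were set beside gene lengths of GENCODE v29, with no coordinates converted. Python 3.11.15 was used for the join and the motif search. Positions count from 1, and alternatives are given with their effect in the closing section.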

Additional observations from a re-analysis of the deposited data

How the results depend on the processing

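Leaving out any 1 library, in turn CRYM 1, CRYM 2, empty vector 1 and empty vector 2, gave 0 heat shock loci, 0 chaperone list genes and 0 loci in all past the threshold (limma; at an unadjusted p under 0.05, 0 to 1 heat shock loci, 1 to 2 list genes and 3627 to 3815 loci). These fits have 1 residual degree of freedom and take a single library to vary as the other group does, and like the next fit they passed no locus, CRYM included. With the replicate block limma also called 0 heat shock loci, 0 list genes and 0 loci (0, 1 and 3819 at an unadjusted p under 0.05; HSPA8 adjusted p = 0.140). Deviations of same-numbered libraries correlated at 0.0361 across loci, and the labels do not pair them. Of the 5 heat shock loci 1 had an unadjusted p under 0.05 without a filter, on rescaling to the same total, without a variance trend and among named loci alone, and 0 passed after adjustment in each. The list count was 0 under the first 2 of these and the last, with quantile normalization and with an FPKM of at least 5, where DNAJC7 drops out. All loci past the threshold numbered 1870 without a filter, 1307 on rescaling to the same total and 303 among named loci alone, where fewer loci were tested. Other pseudocounts, the status filter and median-ratio scaling kept the heat shock count at 1. So did an FPKM of at least 5, where the HSPA8 limma adjusted p was 0.0411. The count also stayed at 1 with an overlap of at least 0.8, which leaves 4 loci. Adding the locus that holds DNAJB1, chosen after seeing the data, kept the count at 1 as well. Under quantile normalization the 1 call was HSP90AA1 and not HSPA8. Signs turned for small differences, and the cause was not tested. With 1 library left out the log2 difference was -0.10 to 0.00019 for HSPB1, -0.00095 to 0.032 for HSPD1, -0.021 to 0.17 for the DNAJB1 locus, -0.29 to 0.015 for PFDN2 and -0.037 to 0.022 for TOMM34. Quantile normalization gave 0.0073 for PFDN2, 0.048 for TOMM34, -0.11 for ITPRIP, -0.026 for TNFRSF21 and -0.091 for TUSC1, and rescaling to the same total 0.022 for TOMM34. The ratio of HSP90AA1 to HSP90AB1, CRYM minus empty vector, was 0.0332 from FPKM and 0.00045 from fragments implied by the deposited bounds, which do not follow depth. The planned ratios with HSPE1 and DNAJB1 were not run, since neither gene has a row.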
